A study of Mus musculus with 18 samples.

Results

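An inhibitor of the microRNA miR-200a-3p was set against its own negative control in mouse cells labelled HL-1, an atrial cardiomyocyte line, and the comparison rests on 6 of the 18 libraries of the series, chosen by their labels. The 3 inhibitor libraries came from cells transfected with the miR-200a-3p inhibitor and kept in high glucose. The 3 control libraries came from cells transfected with the inhibitor's negative control and kept in high glucose as well, so high glucose and transfection were common to both groups. Cells of both groups were harvested 48 h after transfection with HiPerFect, a lipid transfection reagent. The glucose concentration, the time in high glucose, the dose of the inhibitor and the number of cultures behind the libraries are not stated in the labels, and the p-values therefore measure the spread between these libraries, which may be technical. The other 12 libraries (vehicle, high glucose, a miR-200a-3p mimic and its control) entered the same model. They shared in the filter on low counts, the scaling between libraries and the estimate of spread. They are not described except where they are named.

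MicroRNAs are short RNAs that guide Argonaute proteins to messenger RNAs, most often through pairing of the seed with a site in the 3′ untranslated region (UTR), and lower the stability or translation of the message. miR-200a-3p belongs to the miR-200 family, which is best known in epithelial cells for holding down the mesenchymal transcription factors Zeb1 and Zeb2. An inhibitor is an antisense oligonucleotide that occupies the microRNA, so that transcripts held down by it would be released. The microRNA itself is not measured in these messenger RNA libraries, and neither its level in the cells nor the uptake of the inhibitor is known from them.

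The mature sequences are shown because the seed defines which sites the comparison can address. They are those of RefSeq (GRCm38.p6), 5′ to 3′, with the seed (bases 2 to 8) in capitals.
mmu-miR-200a-3p: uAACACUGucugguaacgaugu
mmu-miR-141-3p: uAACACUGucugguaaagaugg
mmu-miR-200b-3p: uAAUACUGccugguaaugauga
miR-200a-3p and miR-141-3p share the seed AACACUG. miR-200b-3p differs from them in the seed, as do miR-200c-3p and miR-429-3p, which share the seed AAUACUG. The sites searched here are those of the AACACUG seed, namely CAGTGTTA (8mer), CAGTGTT (7mer-m8) and AGTGTTA (7mer-A1), on the messenger strand.

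The 6 libraries held 33655916 to 35937439 reads assigned to genes. Levels are CPM, reads scaled to a common library total by TMM, a normalisation that takes most genes as unchanged between libraries. Libraries of different groups were nearly as alike as libraries of the same group. The SD over genes of the log2 difference had a median of 0.127 over pairs between groups and 0.115 over pairs within a group. Across genes, the correlation of log2 CPM was 0.9966 to 0.9981 over the 9 pairs of an inhibitor and a control library, and 0.9966 to 0.9982 over the 6 pairs within a group. The counts of every pair within a group differed by more than sampling noise (chi-square per degree of freedom of 4.37 to 9.37), so no library was counted as a copy of another. The labelled cell type was checked against 15 cardiomyocyte markers. Only 6 of them passed the filter on low counts, among them cardiac troponin T (Tnnt2, 76.2, 65.2 and 72.9 CPM in the inhibitor libraries, against 75.8, 64.2 and 59.5 CPM in the control libraries). Nppa, the atrial natriuretic peptide, had 1 read over the 3 inhibitor libraries and 0 over the 3 control libraries. Myh6, the adult cardiac myosin heavy chain, had 12 reads over the inhibitor libraries and 14 over the control libraries. Of the other tested markers, Gja1 averaged 67.1 CPM with the inhibitor and 60.9 CPM with its control, and Gata4 8.62 and 8.46 CPM. Nkx2-5 (0.239 and 0.311 CPM), Ryr2 (0.377 and 0.359 CPM) and Actn2 (0.0923 and 0.198 CPM) were low. Among the markers that did not pass the filter, Pln and Mybpc3 had 0 reads in all 6 libraries. Actc1 had 3 to 7 reads per library, Tnni3 4 to 8, and Tbx5 and Gja5 0 to 2. Most of the 15 cardiomyocyte markers thus either did not pass the filter or were low in both groups, whereas Tnnt2, Gja1 and Gata4 were not low.

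Of 15074 genes tested, 0 (0%) passed an adjusted p under 0.05 in edgeR's quasi-likelihood test, and the smallest adjusted p was 1. At an unadjusted p under 0.05 there were 447 genes (2.97%), 223 of them higher and 224 lower with the inhibitor. With no effect in any gene, a share of 0.05 would be expected, so this count is no excess. DESeq2 called 0 genes (281 at an unadjusted p under 0.05), and limma on the FPKM table called 0 (674 with a pseudocount of 1). A test against a fold of 1.2 also called 0 genes. The unadjusted count depended on the other groups in the fit. With the 6 libraries of the pair fitted alone, 741 of 14202 genes had an unadjusted p under 0.05. In that fit 1 gene was called, the alpha-tubulin gene Tuba1b, described further on. Without mimic replicate 2, 557 of 15308 genes had an unadjusted p under 0.05 and 0 were called. The middle 90% of log2 fold changes (inhibitor minus control) lay between -0.29 and 0.26, with a median of -0.00044. All 3 inhibitor libraries lay above all 3 control libraries in 768 genes (5.09%), and all 3 lay below in 825 genes (5.47%), together 10.6%. These shares are the background for the counts of separated genes given below.

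The limits that the libraries set on change were narrow for genes with a moderate level. For each gene the 95% interval of the fold change was taken from the same fit, and its end farther from no change is called the bound. A rise of 25% or its inverse, 0.32 on the log2 scale, is called the 25% limit. Where the higher group mean reached 5 CPM (9683 genes), the whole interval lay inside the 25% limit in 92.5%, within 1.5-fold in 99.2% and within 2-fold in 99.7%. The median bound of these genes was 1.14-fold and the median standard error (SE) of the log2 fold change 0.0657. Precision followed the level, taken as the mean of both groups. Under 1 CPM, 5.01% of 3035 genes had their interval within 1.5-fold, against 73.6% of 2416 genes from 1 to 5 CPM and 98.5% of 3322 genes from 5 to 20 CPM. A log2 fold change over 1 in size occurred in 100 genes, but in only 8 with at least 5 CPM, and these 8 were mitochondrially encoded transcripts (mt-Nd6 and mt-Atp8) and predicted gene models. The intervals cover the spread between libraries as edgeR estimates it over the 6 groups.

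**Figure D1:**
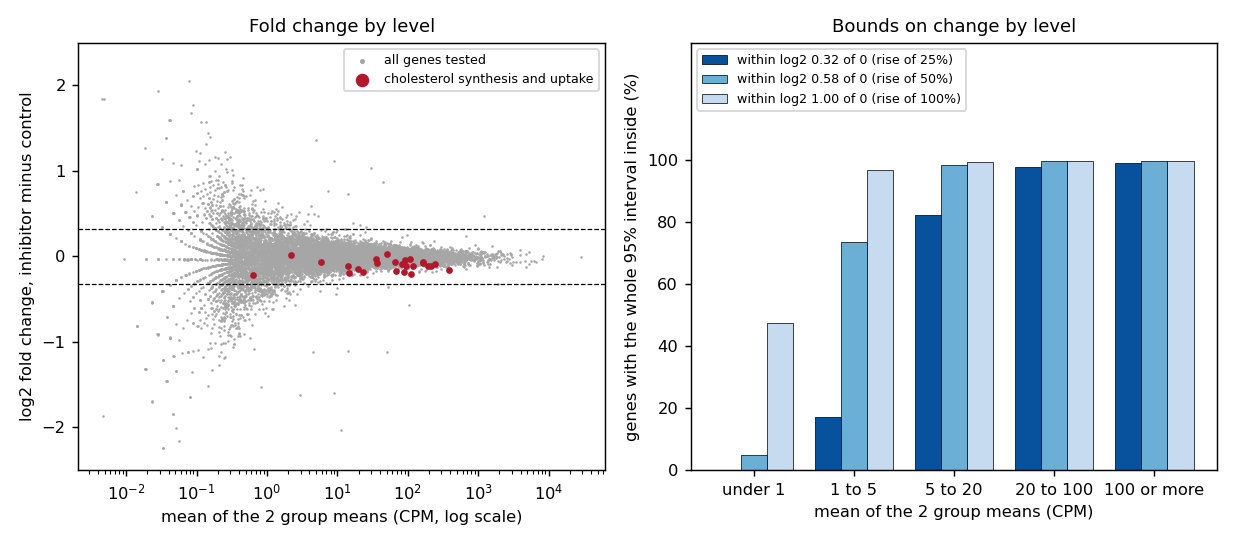
Left, log2 fold change of the inhibitor minus its control for each gene tested against the mean of the 2 group means (CPM, log scale), with cholesterol synthesis and uptake genes in red and dashed lines at the 25% limit (4 genes lie outside the axis). Right, the percentage of genes in each range of level whose whole 95% interval lies inside the 25% limit, 1.5-fold or 2-fold, which reaches 98.0% inside the 25% limit for genes from 20 to 100 CPM.

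Release of genes reported as miR-200a targets is the first question the comparison can address. Of 17 such genes taken from general knowledge of the literature, 13 were tested and 0 were called. In 0 of these 13 genes were the 3 inhibitor libraries apart from the 3 control libraries, against 10.6% of all genes. Their median log2 fold change was 0.029, with 9 above 0 and 4 below, and the largest bound among those with at least 5 CPM was 1.17-fold. Stat4, Hoxb5, Dlx5 and Foxa1 did not pass the filter. Zeb1 (ENSMUSG00000024238.16, chromosome 18, 5591851 to 5775467, + strand), the repressor of E-cadherin that is the best known target, had 70.5, 73.7 and 72.1 CPM in the inhibitor libraries, against 71.5, 68.98 and 68.9 CPM in the control libraries. The libraries of the groups overlapped. Its mean was 72.1 ± 1.61 CPM with the inhibitor and 69.8 ± 1.48 CPM with its control (SD, n = 3 each). The log2 fold change was 0.046 ± 0.0623 (± SE here and for all log2 fold changes below), with a bound of 1.13-fold.

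Zeb2 (ENSMUSG00000026872.19, chromosome 2, 44873644 to 45007464, - strand), the partner factor of Zeb1, had 379, 382 and 392 CPM in the inhibitor libraries, against 401, 388 and 373 CPM in the control libraries. The ranges overlapped, and the log2 fold change of -0.011 ± 0.0651 had a bound of 1.11-fold. Keap1, the adaptor that sends Nrf2 to degradation, had 42.3, 41.3 and 42.2 CPM in the inhibitor libraries, against 42.99, 42.6 and 40.5 CPM in the control libraries, and its bound was 1.10-fold. Ctnnb1, which encodes beta-catenin, had 184, 188 and 186 CPM in the inhibitor libraries, against 183, 184 and 188 CPM in the control libraries, with a bound of 1.09-fold. Of these 4 genes, Zeb1 had the largest bound. The 2 tested targets with the smallest p were Elmo2, an engulfment and motility scaffold (log2 fold change 0.10 ± 0.0574, unadjusted p = 0.101), and Klf12, a repressor of the Kruppel family (log2 fold change 0.33 ± 0.247, unadjusted p = 0.199). Klf12 lay at 0.551, 0.964 and 1.09 CPM in the inhibitor libraries, against 0.760, 0.645 and 0.665 CPM in the control libraries, where its interval allowed up to 1.80-fold.

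**Figure D2:**
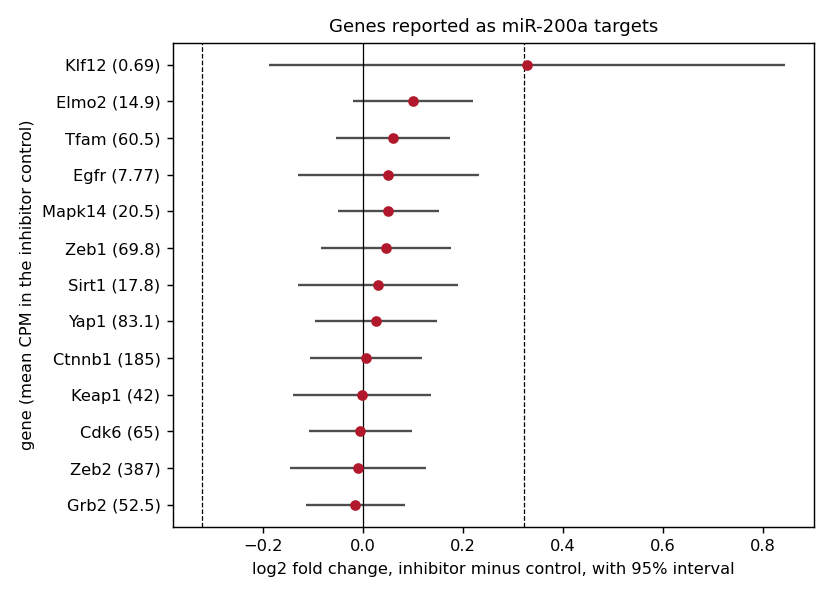
Log2 fold change of the inhibitor minus its control (points) with its 95% interval (lines) for the 13 genes reported as miR-200a targets that were tested, with the mean CPM of the control in brackets and dashed lines at the 25% limit. Every interval includes 0, and Klf12 alone, at under 1 CPM, has an interval that passes the 25% limit.

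Sites of the AACACUG seed were searched in the canonical 3′ UTRs of the GENCODE M39 annotation of GRCm39. Of the tested targets, Zeb2, Keap1, Elmo2, Tfam and Mapk14 had no such site there. For 4 reported targets, 1 site each is printed to show what pairs with the seed, with the matching bases in capitals, 5′ to 3′ on the gene's strand. All of them lie in the last exon, in the 3′ UTR.
Yap1 8mer (chr9:7933482-7933511, - strand): gggagggtgggCAGTGTTAtagaaagggct
Klf12 8mer (chr14:100112472-100112501, - strand): agctccctctaCAGTGTTAacgtcaagggc
Egfr 7mer-m8 (chr11:16862511-16862539, + strand): cgctagtttacCAGTGTTttctattagac
Sirt1 7mer-m8 (chr10:63154836-63154864, - strand): aaatacaaaaaCAGTGTTttatacttgta
Yap1, the transcriptional coactivator of the Hippo pathway, had 84.7, 85.5 and 83.7 CPM in the inhibitor libraries, against 86.6, 81.9 and 80.9 CPM in the control libraries, with a bound of 1.11-fold. Egfr, the receptor of epidermal growth factor, had 7.85, 8.06 and 8.22 CPM in the inhibitor libraries, against 7.37, 7.21 and 8.73 CPM in the control libraries, with a bound of 1.17-fold. Sirt1, a nuclear deacetylase, had 17.5, 19.3 and 17.5 CPM in the inhibitor libraries, against 16.99, 17.5 and 18.7 CPM in the control libraries, with a bound of 1.14-fold. In each of these genes the libraries of both groups overlapped.

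Genes with the strongest site type had a median close to that of genes with no site. The 685 tested genes with an 8mer had a median log2 fold change of 0.0017, against -0.0013 for the 9352 genes with a 3′ UTR and no site, a difference of 0.0030. The difference was 0.015 without control replicate 3 and -0.0034 without control replicate 1. Taken library by library, the median of the 8mer genes minus that of genes with no site was 0.0063, 0.0093 and -0.0054 in the 3 inhibitor libraries relative to the control mean. Among 8mer genes, 5.40% were separated higher and 4.96% lower, near the 5.09% and 5.47% of all genes. The 2185 genes with a 7mer-m8 had a median of 0.0025. The 684 genes with a 7mer-A1 had a median of 0.015, with 8.77% separated higher and 3.95% lower. In the library-wise values that shift was 0.019, 0.018 and 0.0061. No gene with a site of any type was called. For 74.2% of the 8mer genes the whole 95% interval lay inside the 25% limit. Under the mimic, the median log2 fold change was 0.070 for 8mer genes and -0.030 for genes with no site.

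**Figure D3:**
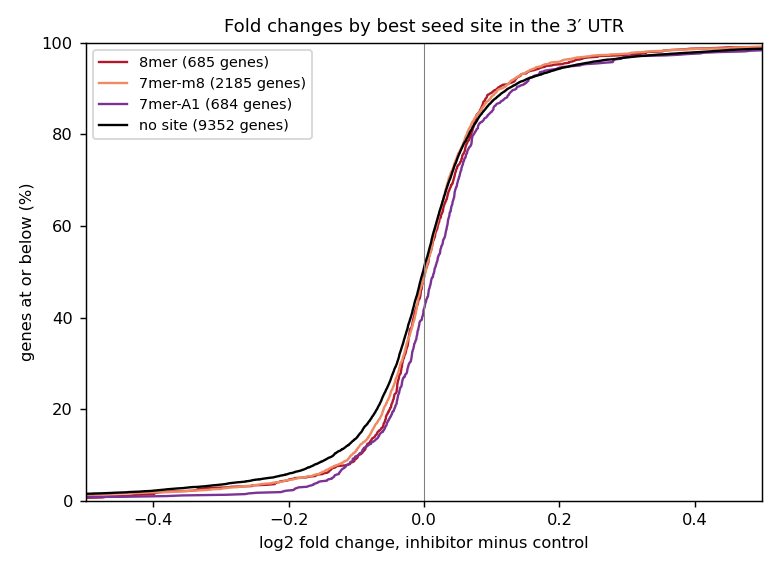
Percentage of genes at or below each log2 fold change of the inhibitor minus its control, for tested genes whose best site for the seed in the 3′ UTR is an 8mer, a 7mer-m8 or a 7mer-A1 and for genes with no site. The curves of 8mer and 7mer-m8 genes cross that of genes with no site near 0 and the 7mer-A1 curve lies slightly to the right, with medians of 0.0017, 0.0025, 0.015 and -0.0013, and the horizontal axis is limited to 0.5 on either side.

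The 8mer genes with the smallest p were picked after their values were seen, and the sites of 2 of them are printed to show that each is a full 8mer of the seed.
Aldh1a1 8mer (chr19:20620441-20620470, + strand): aaggaattcatCAGTGTTActgtcactcat
Serpinb8 8mer (chr1:107537494-107537523, + strand): ctctgtctcagCAGTGTTAattacagcttt
Aldh1a1, a retinaldehyde dehydrogenase, had 6.89, 8.08 and 8.08 CPM in the inhibitor libraries, against 5.71, 6.26 and 6.50 CPM in the control libraries, and every inhibitor library was the higher. Its log2 fold change was 0.32 ± 0.0982 (unadjusted p = 0.00414). Serpinb8, an intracellular protease inhibitor, had 7.52, 7.42 and 7.33 CPM in the inhibitor libraries, against 6.13, 6.34 and 5.61 CPM in the control libraries, also separated, with a log2 fold change of 0.30 ± 0.0961 (unadjusted p = 0.00556). Kalrn, a guanine nucleotide exchange factor, was separated in the other direction (15.1, 16.04 and 15.3 CPM in the inhibitor libraries, against 17.4, 17.4 and 16.6 CPM in the control libraries). Its log2 fold change was -0.15 ± 0.0574.

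Cholesterol synthesis was the group of genes with the largest shift among the 50 lists examined. Cells make cholesterol from acetyl-CoA through mevalonate, squalene and lanosterol, and the transcription factor SREBP2, held in the endoplasmic reticulum by the Insig proteins when sterols are plentiful, drives the genes of the pathway together. Of the 25 genes of cholesterol synthesis and uptake, all tested, 0 were called, 23 had a log2 fold change below 0, and the median was -0.11, against -0.00044 over all genes tested. All 3 inhibitor libraries lay below all 3 control libraries in 13 of 25 (52%, against 5.47% of all genes) and above in 0 (against 5.09%). At an unadjusted p under 0.05, 8 were lower and 0 higher, against 1.49% and 1.48% of all genes. The mean over members of log2 CPM relative to the control mean was -0.088, -0.15 and -0.067 in the inhibitor libraries, against 0.0061, -0.0031 and -0.0031 in the control libraries, so the libraries of the groups did not overlap. Among members with at least 5 CPM, the largest bound was 1.27-fold. Genes of 1 pathway are not independent of each other, and neither are their counts.

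Of the early steps, Hmgcs1 (ENSMUSG00000093930.3, chromosome 13, 120151915 to 120170470, + strand), the synthase that makes HMG-CoA, had 366, 345 and 372 CPM in the inhibitor libraries, against 388, 405 and 419 CPM in the control libraries. Its log2 fold change was -0.16 ± 0.0489 (unadjusted p = 0.00347), a 95% interval of 0.832 to 0.959-fold. Acat2, the thiolase that feeds the pathway, had 21.7, 21.8 and 21.3 CPM in the inhibitor libraries, against 25.7, 23.4 and 24.3 CPM in the control libraries. Every inhibitor library of these 2 genes was below every control library. The mevalonate enzymes Mvk (18.98, 18.4 and 19.1 CPM in the inhibitor libraries, against 21.1, 21.1 and 20.2 CPM in the control libraries) and Mvd (65.4, 61.4 and 65.2 CPM in the inhibitor libraries, against 77.3, 68.9 and 70.7 CPM in the control libraries) were separated in the same way, while Pmvk, which acts between them, overlapped (log2 fold change -0.041 ± 0.0664). Fdps, which makes farnesyl diphosphate, had 14.5, 12.9 and 14.01 CPM in the inhibitor libraries, against 15.4, 15.8 and 16.1 CPM in the control libraries, again with the groups apart.

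Of the later steps, Lss (ENSMUSG00000033105.13, chromosome 10, 76367298 to 76392976, + strand), which closes squalene epoxide into lanosterol, had the smallest p of all genes tested with an unadjusted p of 0.000327 and an adjusted p of 1 in edgeR's quasi-likelihood test. It had 108, 103 and 102 CPM in the inhibitor libraries, against 127, 119 and 116 CPM in the control libraries. Its mean was 104 ± 3.18 CPM with the inhibitor and 120.5 ± 5.39 CPM with its control (SD, n = 3 each). The log2 fold change was -0.21 ± 0.0475, a 95% interval of 0.808 to 0.928-fold. Sqle, the squalene epoxidase, had 236, 228 and 239.9 CPM in the inhibitor libraries, against 241, 249 and 259 CPM in the control libraries. These 2 genes were lower in every inhibitor library, and so were Fdft1 and Hsd17b7. By contrast the libraries overlapped for the demethylase Cyp51 (log2 fold change -0.066 ± 0.0479), for Msmo1 (-0.027 ± 0.0611) and for the isomerase Ebp (0.029 ± 0.0475).

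Of the regulators, Insig1 (ENSMUSG00000045294.12, chromosome 5, 28276315 to 28283668, + strand), which retains SREBP in the endoplasmic reticulum and is itself an SREBP target, had 82.2, 82.3 and 84.9 CPM in the inhibitor libraries, against 92.6, 89.1 and 100.5 CPM in the control libraries. Its log2 fold change was -0.18 ± 0.0597 (unadjusted p = 0.00775). Srebf2, the gene of SREBP2, had 185, 184 and 183 CPM in the inhibitor libraries, against 210.5, 192 and 193 CPM in the control libraries, again with the groups apart and with a log2 fold change of -0.11 ± 0.0452. With 1 library left out at a time, the median of the 25 genes was between -0.12 and -0.093.

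**Figure D4:**
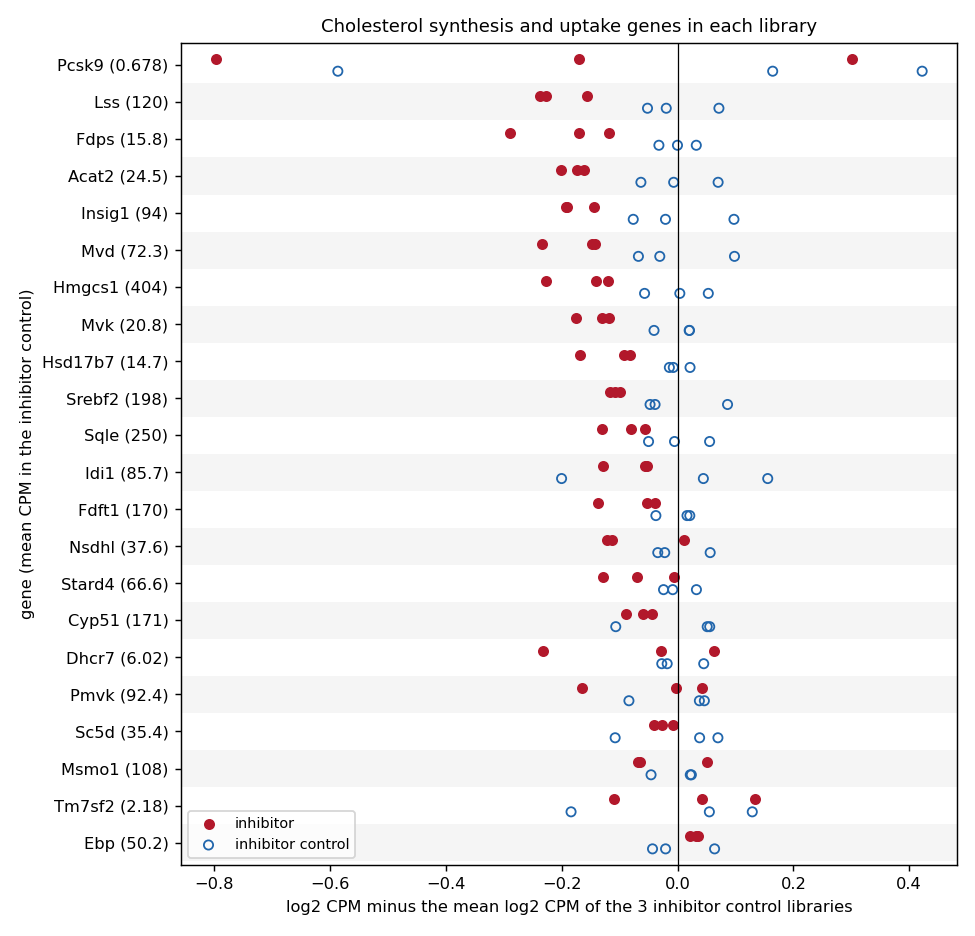
For 22 of the 25 genes of cholesterol synthesis and uptake (mean CPM of the control in brackets), ordered by log2 fold change, log2 CPM of each inhibitor library (filled red) and each control library (open blue) minus the mean of the control libraries. In 11 of the genes shown all inhibitor points lie left of all control points, and in 0 genes right of them.

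Genes next to the pathway were gathered in 2 further lists after these values were seen, and describe rather than test it. Of 16 genes in the list of fatty acid genes driven by SREBP, which also holds Mmab, 4 were separated lower and 0 higher. The shares over all genes were 5.47% and 5.09%. The median of the list was -0.039. Mmab, an adenosyltransferase of vitamin B12 metabolism that in human shares a promoter with MVK, had 39.5, 39.3 and 39.3 CPM in the inhibitor libraries, against 44.2, 44.7 and 44.1 CPM in the control libraries, with a log2 fold change of -0.17 ± 0.0462 (unadjusted p = 0.00154). Fads1, a fatty acid desaturase, had 70.5, 72.6 and 70.5 CPM in the inhibitor libraries, against 80.2, 76.4 and 76.7 CPM in the control libraries. Both were lower in every inhibitor library, whereas Fasn, the fatty acid synthase, overlapped (log2 fold change -0.052 ± 0.0560). Of 16 genes of sterol sensing and efflux, 3 were separated higher and 0 lower, against 5.09% and 5.47% of all genes. Mylip, a ubiquitin ligase, had 13.7, 16.5 and 14.2 CPM in the inhibitor libraries, against 12.5, 11.7 and 13.03 CPM in the control libraries. Abca1, the pump that hands cholesterol to apolipoproteins, had 3.97, 6.13 and 5.07 CPM in the inhibitor libraries, against 2.76, 3.70 and 3.58 CPM in the control libraries, and its relative Abcg1 had 0.661, 0.830 and 0.745 CPM in the inhibitor libraries, against 0.450, 0.505 and 0.347 CPM in the control libraries. Their intervals were wide (4.21-fold and 3.70-fold as bounds) with mimic replicate 2 in the model. Macrophage transcripts were high in that library alone, where Lyz2 had 29847 reads and Csf1r 1820 reads, against 530 and 522 reads of Lyz2 and 41 and 32 reads of Csf1r in the other two mimic libraries. Without mimic replicate 2, Abca1 had a log2 fold change of 0.60 ± 0.140 (adjusted p = 0.731 in edgeR) and a bound of 1.84-fold.

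A sterol regulatory element of the letters TCACNCCAC was looked for on both strands of RefSeq promoters (GRCm38.p6, 250 bases before to 50 after the start). It was in 1 of the 17 cholesterol genes with a promoter in the table (5.9%) and in 1.42% of 10711 tested genes. The one match is printed, with the element in capitals, because its gene is among those separated.
Hmgcs1 promoter (chr13:119690204-119690232, + strand, element starting 137 bases before the start): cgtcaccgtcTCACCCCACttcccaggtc
A match of letters does not show that a factor binds there, and no match says only that these letters are not in the window.

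The mimic gives a second view of the same pathway with its own control libraries, so the effects of both reagents could be compared in 1 test. The 2 pairs stood at different levels before any effect was taken. Hmgcs1 averaged 404 CPM in the inhibitor control and 59.8 CPM in the mimic control, Insig1 94.03 and 11.1 CPM, and Lss 120.5 and 46.7 CPM. The control reagent and any other difference between the pairs cannot be told apart, and their part in the differences below was not tested. Over all genes the test called 1993 (13.2%), against 5 of the 25 cholesterol genes, and it called 1244 without inhibitor control replicate 3 and 1304 without inhibitor control replicate 2. Hmgcs1 had 71.7 ± 3.15 CPM with the mimic and 59.8 ± 2.11 CPM with the mimic control (SD, n = 3 each). Its log2 fold change of 0.26 ± 0.0519 under the mimic and -0.16 ± 0.0489 under the inhibitor differed by 0.43 ± 0.0713 (adjusted p = 0.00131, edgeR's quasi-likelihood test), but with the correction for GC content and length the adjusted p was 0.0757 in edgeR. Insig1 had 16.4 ± 1.33 CPM with the mimic and 11.1 ± 0.984 CPM with the mimic control (SD, n = 3 each), and the effects differed by 0.74 ± 0.0949 (adjusted p = 0.000169, same test). For Lss the mimic effect was -0.17 ± 0.0504 and lay on the same side as that of the inhibitor (difference 0.036 ± 0.0692, adjusted p = 0.779 in edgeR). Under the mimic, 8 of the 25 genes were called lower and 5 higher, against 18% and 15.8% of all genes. Zeb2 differed as well. It had 361 ± 17.001 CPM with the mimic and 242 ± 5.51 CPM with the mimic control (SD, n = 3 each), a difference between the effects of 0.59 ± 0.0924 (adjusted p = 0.000859 in edgeR).

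Genes of cell division leaned the other way from those of cholesterol synthesis, although the libraries of the groups overlapped. Of 32 genes of DNA replication and S phase, 0 were called and 28 were above 0, with a median of 0.065. Separated higher were 5 (15.6%, against 5.09% of all genes) and lower 0 (against 5.47%). Rfc4, a clamp loader subunit, had 10.8, 10.3 and 10.03 CPM in the inhibitor libraries, against 8.81, 8.64 and 9.77 CPM in the control libraries, with a log2 fold change of 0.19 ± 0.0607. Cdc6, which loads the replicative helicase, had 6.14, 5.62 and 5.96 CPM in the inhibitor libraries, against 5.43, 5.19 and 4.59 CPM in the control libraries (0.22 ± 0.0841). Both were higher in every inhibitor library. The mean over the list was 0.11, 0.049 and 0.022 in the inhibitor libraries, against 0.057, -0.013 and -0.044 in the control libraries, where control replicate 1 lay within the range of the inhibitor libraries. The median was 0.042 without inhibitor replicate 1 and 0.040 without control replicate 3.

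Of 28 genes of mitosis and G2/M, 0 were called, 24 were above 0 and 4 were separated higher (14.3%, against 5.09% of all genes). The median was 0.066. Kif23, a kinesin of the mitotic midzone, had 34.2, 31.6 and 35.4 CPM in the inhibitor libraries, against 30.2, 32.2 and 30.4 CPM in the control libraries, with inhibitor replicate 2 inside the control range. Ccnb1, cyclin B1, had 48.2, 44.4 and 47.2 CPM in the inhibitor libraries, against 42.99, 43.4 and 43.4 CPM in the control libraries, with the groups apart. The list means were 0.14, -0.026 and 0.064 in the inhibitor libraries, against -0.0039, 0.019 and -0.015 in the control libraries, so inhibitor replicate 1 was the highest and replicate 2 the lowest of the 6. Without inhibitor replicate 1 the median of the list was 0.027, and without inhibitor replicate 2 it was 0.11.

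Glycolysis and hypoxia-inducible genes lay slightly lower, with 23 of 30 tested genes below 0, a median of -0.079, 0 called and 4 separated lower (13.3%, against 5.47%). Pgk1, a glycolytic kinase, had 715, 717 and 746 CPM in the inhibitor libraries, against 753, 807 and 766 CPM in the control libraries, with the groups apart. Pfkl, the liver form of phosphofructokinase, had 233, 229 and 255 CPM in the inhibitor libraries, against 272, 255 and 246 CPM in the control libraries, and the groups overlapped. The list means were -0.073, -0.13 and 0.031 in the inhibitor libraries, against 0.0041, 0.022 and -0.026 in the control libraries, so inhibitor replicate 3 lay above all control libraries. Without inhibitor replicate 2 the median of the list was -0.031, without inhibitor replicate 3 it was -0.11, and without control replicate 2 it was -0.050. Collagen chains had 3 of 21 genes separated lower, against 5.47% of all genes. Their median was -0.042, which was -0.0021 without inhibitor replicate 2. Col1a1, a chain of type I collagen, overlapped at its closest libraries and had 87.3, 95.2 and 105 CPM in the inhibitor libraries, against 111, 115 and 105 CPM in the control libraries (-0.20 ± 0.0623, unadjusted p = 0.00417). Col5a1 had 613, 619 and 637 CPM in the inhibitor libraries, against 655, 687 and 663 CPM in the control libraries, separated.

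Immediate early genes, which answer growth factor and stress signals within minutes, had 19 of 22 genes below 0 with a median of -0.071. Of these 22 genes, 0 were called and 4 were separated lower (18.2%, against 5.47% of all genes). Egr3 had 0.606, 0.883 and 0.831 CPM in the inhibitor libraries, against 0.985, 1.43 and 1.13 CPM in the control libraries, and Ier2 had 12.6, 13.1 and 14.6 CPM in the inhibitor libraries, against 14.7, 15.1 and 15.2 CPM in the control libraries. The list means were -0.18, -0.027 and -0.028 in the inhibitor libraries, against -0.014, -0.012 and 0.026 in the control libraries. These did not overlap, but inhibitor replicate 1 was farther from the control than the other two, and without it the median was -0.031. Of 24 genes of the ATF4 stress response, 6 were separated lower (25%, against 5.47%) and 0 higher (against 5.09%). The median of the 24 genes was -0.031, which was -0.010 without control replicate 1. Ddit4, an inhibitor of mTOR signalling, had 19.998, 19.1 and 18.9 CPM in the inhibitor libraries, against 21.3, 23.1 and 21.2 CPM in the control libraries (-0.18 ± 0.0535, unadjusted p = 0.00389). Atf3 had 181, 197 and 181 CPM in the inhibitor libraries, against 201, 205 and 197 CPM in the control libraries, also separated. Atf4 itself overlapped between the groups (log2 fold change -0.0053 ± 0.0426, bound 1.07-fold).

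Cytosolic ribosomal proteins had 59 of 78 genes below 0 with a median of -0.033 (-0.012 without control replicate 1). Of these 78 genes, 5 were separated lower and 1 higher, against 5.47% and 5.09% of all genes. The 2 with the smallest p were Rpl23a (-0.12 ± 0.0765) and Rps28 (-0.13 ± 0.0816). TGF-beta ligands, receptors and antagonists had a median of 0.021, with 4 of 34 separated higher and 2 lower, against 5.09% and 5.47% of all genes. Grem1, an antagonist of bone morphogenetic proteins, had 68.9, 58.8 and 58.7 CPM in the inhibitor libraries, against 56.9, 53.9 and 54.2 CPM in the control libraries. It was higher in every inhibitor library. Cytosolic heat shock genes had a median of 0.023, with Hspa1b at 0.17 ± 0.0811 and Hspb8 at -0.089 ± 0.0477, and microRNA processing genes one of -0.047. Of the microRNA processing genes, Ago1, an Argonaute protein, had 24.9, 25.004 and 24.9 CPM in the inhibitor libraries, against 26.3, 27.01 and 26.5 CPM in the control libraries and was separated lower, and Cnot7, a deadenylase, was separated higher (27.96, 27.7 and 29.995 CPM in the inhibitor libraries, against 25.3, 26.7 and 27.5 CPM in the control libraries). Of all 50 lists, 40 had a median within 0.05 of 0, and 0 of their 1011 tested members were called. The list means of the inhibitor libraries lay above all control libraries in 3 lists and below in 5, and overlapped in 42. No list was tested as a set.

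**Figure D5:**
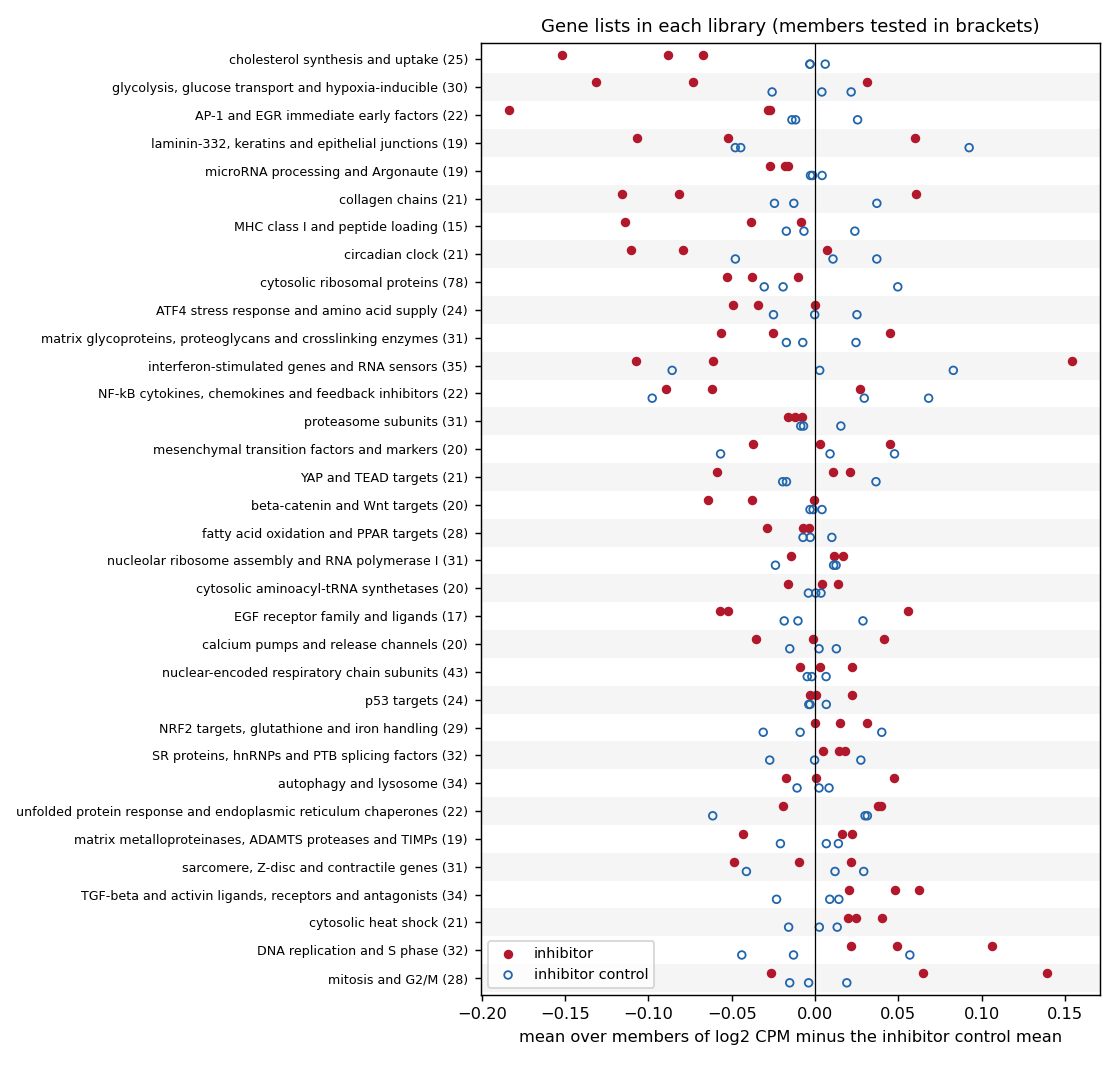
Mean over list members of log2 CPM minus the mean of the control libraries, for each inhibitor library (filled red) and control library (open blue), in the 34 lists with at least 15 tested members, ordered by median log2 fold change. Cholesterol synthesis and uptake has the lowest median (-0.11) and inhibitor values of -0.088, -0.15 and -0.067, while most lists overlap.

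Genes of the heart muscle and of glucose response were described because the cells stand for cardiomyocytes in high glucose. Nppb, the brain natriuretic peptide of stressed heart muscle, had 2.07, 2.65 and 2.81 CPM in the inhibitor libraries, against 2.70, 2.83 and 3.12 CPM in the control libraries (bound 1.46-fold). Myh7, the slow myosin heavy chain, lay at 0.331, 0.402 and 0.544 CPM in the inhibitor libraries, against 0.647, 0.421 and 0.405 CPM in the control libraries, where the interval allowed up to 1.96-fold. Txnip, an inhibitor of glucose uptake that is induced by glucose, lay at 0.634, 1.02 and 0.802 CPM in the inhibitor libraries, against 1.10, 1.18 and 0.607 CPM in the control libraries (bound 2.04-fold). The groups overlapped in all 3 genes. Txnip had 21 to 42 reads in these 6 libraries, against 14330, 14609 and 15617 reads in the untransfected high glucose libraries. The reason for that difference was not tested. Of 31 sarcomere and contractile genes tested, 3 were separated higher and 3 lower, against 5.09% and 5.47% of all genes. The median of the 31 genes was 0.019. Myh3, the embryonic skeletal myosin heavy chain, had 8.13, 9.16 and 7.36 CPM in the inhibitor libraries, against 11.7, 12.6 and 9.19 CPM in the control libraries (-0.44 ± 0.120, unadjusted p = 0.00159). Acta2, smooth muscle actin, had 175, 179.6 and 169.97 CPM in the inhibitor libraries, against 163, 154 and 153 CPM in the control libraries (0.16 ± 0.0538). Of 29 targets of Nrf2, the factor that Keap1 restrains, 0 were separated higher and 3 lower, against 5.09% and 5.47% of all genes. The median of the 29 targets was 0.0046 (-0.0015 without control replicate 3). Prdx1, a peroxiredoxin, had 191, 186 and 192 CPM in the inhibitor libraries, against 159, 178 and 192 CPM in the control libraries, and Nqo1, a quinone reductase, had 29.3, 24.1 and 27.04 CPM in the inhibitor libraries, against 29.01, 21.8 and 20.9 CPM in the control libraries. Both overlapped.

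Further single genes were picked for their small p or large fold change after their values were seen. Tuba1b (ENSMUSG00000023004.9, chromosome 15, 98827738 to 98832493, - strand), an alpha-tubulin, had 82.9, 82.5 and 85.1 CPM in the inhibitor libraries, against 104, 129.99 and 137 CPM in the control libraries. Its log2 fold change was -0.57 ± 0.163, and it was called in the fit of the 6 libraries alone (-0.57, adjusted p = 0.00781 in edgeR). Alpha-tubulin genes are nearly identical in their coding sequence, reads with more than 1 place were dropped, and the value is therefore uncertain. The close relatives Tuba1a (-0.12 ± 0.136) and Tuba1c (-0.064 ± 0.0585) overlapped between the groups. In a list of 11 tubulins, also drawn up after values were seen, Tuba1b was the 1 gene separated lower and 0 were separated higher. The shares over all genes were 5.47% and 5.09%, and the median of the tubulins was -0.064. Mgp, an inhibitor of calcification, had 100.4, 105 and 109 CPM in the inhibitor libraries, against 83.6, 91.6 and 90.2 CPM in the control libraries (0.25 ± 0.0621, unadjusted p = 0.000771). Spon2, a matrix protein, had 7.44, 8.97 and 9.68 CPM in the inhibitor libraries, against 10.5, 11.5 and 11.8 CPM in the control libraries (-0.37 ± 0.0932). The imprinted RNA H19 had 771, 681 and 733 CPM in the inhibitor libraries, against 618, 632 and 599 CPM in the control libraries (0.24 ± 0.0787).

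Some mitochondrial and ribosomal transcripts differed between single libraries. mt-Nd6, which lies on the other strand of the mitochondrial genome from most of its genes, had 21.8, 53.2 and 20.7 CPM in the inhibitor libraries, against 59.8, 103 and 45.2 CPM in the control libraries, so the groups overlapped. mt-Atp8 was high in inhibitor replicate 1 alone (28.3, 4.18 and 3.95 CPM in the inhibitor libraries, against 7.32, 4.15 and 5.29 CPM in the control libraries), and mt-Co2 in inhibitor replicate 3 alone (11.6, 9.64 and 32.6 CPM in the inhibitor libraries, against 10.1, 10.996 and 11.2 CPM in the control libraries). The 18S ribosomal RNA gene Rn18s had 63162, 36992 and 52598 reads in the inhibitor libraries, against 28823, 32638 and 45818 reads in the control libraries. With Rn18s and the mitochondrially encoded genes left out before scaling, 0 genes were called and the median of the cholesterol genes was -0.11. Macrophage markers did not differ in a common direction between the groups (1 of 10 separated higher and 2 lower, against 5.09% and 5.47% of all genes). Cd68, a lysosomal protein of macrophages, had 9.67, 9.91 and 9.68 CPM in the inhibitor libraries, against 12.1, 11.7 and 11.2 CPM in the control libraries, separated lower, and Cd14, a co-receptor for endotoxin, had 7.16, 6.75 and 6.07 CPM in the inhibitor libraries, against 5.96, 6.003 and 5.87 CPM in the control libraries, separated higher. In these bulk libraries fewer cells of a type and less RNA per cell cannot be told apart.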

How the data were processed

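Paired reads of stranded mRNA libraries were, per the labels' protocols, trimmed with FASTX-Toolkit 0.0.13 and aligned to GRCm39 with HISAT2. The authors deposited raw read counts of uniquely mapped reads per gene and FPKM values. DESeq2 appears in the submitters' processing notes with no role. How reads were counted (program, annotation release, strand) is not given in the sources used here, so reads of overlapping antisense genes may be shared.

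From the counts, genes were filtered with filterByExpr (minimum count 10, minimum total 15), leaving 15074 of 29112. edgeR 4.0.16 (R 4.3.3) was run with TMM scaling and a quasi-likelihood fit of the 6 group means over 18 libraries (12 residual degrees of freedom). p-values were adjusted by Benjamini-Hochberg over all genes tested, unless called unadjusted. Levels are CPM, and list means use log2 CPM with a prior of 2 reads. A count of 0 allows 3 reads, 0.0835 to 0.0891 CPM, covering counting error only. limma 3.58.1 (on log2 FPKM with pseudocounts 1 and 0.1) and DESeq2 1.42.0 were alternatives. The fit was also run on simulated counts with changes planted in abundant genes only, and no bound given here rests on that run.

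Of listed genes, 28849 (99.1%) matched GENCODE M39. Named genes are a set list (Txnip, Myh7, Myh6, Nppb, Nppa, and the targets Ctnnb1, Keap1, Zeb2 and Zeb1), called genes (none), and the 2 tested members with the smallest p of each described list without calls. Some genes and a site are not reported here. Other named genes were chosen after their values were seen. Members and lists were chosen with earlier results of these data known.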

Additional observations from a re-analysis of the deposited data

How the results depend on the processing

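Of 17 alternatives, 15 also called 0 genes between the inhibitor and its control. Without the filter on low counts, 26 of 29112 genes were called, 15 beyond 1.2-fold, and 6 list members, and edgeR's estimate of the prior degrees of freedom was then infinite, against 7.14. With the compared groups alone, 1 gene was called. Of 200 genes followed, 190 were called in none of the alternatives. The median of the cholesterol genes stayed between -0.12 and -0.081 in all 17. Leaving out 1 library in turn called 0 genes each time. The 8mer median minus that of genes with no site then ran from -0.0034 to 0.015, the highest without control replicate 3.

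The labels do not say whether same-numbered libraries share a culture, batch or day. Their deviations from the group means had correlations of -0.014, -0.0024 and -0.12. These cannot tell whether the samples were paired, because a shared culture need not leave a common shift in expression. With the replicate block, 0 genes were called (312 at an unadjusted p under 0.05). The difference between the mimic and inhibitor effects called 861 genes with the replicate block and 1321 with the correction for GC content and length, against 1993. With the replicate block the differences of Hmgcs1, Insig1 and Zeb2 had adjusted p-values of 0.0179, 0.00416 and 0.0135 in edgeR. With 1 inhibitor or control library left out it called 1244 to 2020, the fewest without control replicate 3 and 1304 without control replicate 2. Precision was lowest for genes under 1 CPM, where 0% had an interval inside the 25% limit.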
